A study of Mus musculus with 9 samples.

Results

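Chromatin accessibility at 9 transcription factor genes of the endothelium was examined in purified brain endothelial cell (EC) nuclei: the SoxF genes Sox7, Sox17 and Sox18, and the forkhead genes Foxf2, Foxq1, Foxc1, Foxo1, Foxo3 and Foxp1. The genes were taken by name, and every open-chromatin peak that the authors' annotation assigned to one of them was used, which gave 702 of the 253457 peaks in 9 libraries. Peaks of different libraries that overlapped by at least 1 bp were merged, which placed the 702 peaks in 183 of 92495 regions. The assay was Omni-ATAC-seq, in which a transposase inserts sequencing adapters into open chromatin. Young and old mice of 2 genotypes were compared, namely young WT Cre (n = 2 libraries), young EC-K4KO (n = 3), old WT Cre (n = 2) and old EC-K4KO (n = 2). EC-K4KO mice carry floxed Klf4 alleles and a tamoxifen-inducible Cre driven by the Cdh5 (VE-cadherin) promoter, which is active in ECs of the whole body. WT Cre controls, labelled CdH5CRE, carry the Cre alone, and by the study's methods both genotypes are on the C57BL/6J background and received tamoxifen as young adults. The labels speak of purified nuclei, and the methods of flow-sorted live ECs. The labels give age only as young or old and do not say how many animals stand behind a library, so p-values measure the spread between these libraries.

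SoxF proteins are high-mobility-group factors that act with the vascular growth factor and Notch pathways in arterial and lymphatic specification, and Sox17 also acts with Wnt signalling at the blood-brain barrier. Foxq1, Foxf2 and Foxc1 lie side by side in one gene cluster. Foxq1 is enriched in brain ECs, and Foxf2 and Foxc1 are needed in pericytes for the formation of brain vessels. Foxo1 and Foxo3 are effectors of insulin and growth factor signalling that restrain EC growth and are linked to ageing, and Foxp1 is a repressor-type forkhead factor expressed in many tissues, ECs included.

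The following sequences come from the distal regions on which the results turn, that is, regions away from the start of the gene to which they were assigned. They are 300 bases of GRCm38 (mm10) centred on the best-ranked peak of the region, and all 7 windows lie outside annotated exons. Short strings recognised by the factor families in question were searched on both strands, and matches are in capitals: the SOX strings ACAATG and AACAAAG, the forkhead string TAAACA, the ETS strings CCGGAA and also AGGAAG, the KLF string CCACCC and the AP-1 string TGANTCA.
Sox17 25.9 kb downstream, chr1:4471146-4471445, + strand: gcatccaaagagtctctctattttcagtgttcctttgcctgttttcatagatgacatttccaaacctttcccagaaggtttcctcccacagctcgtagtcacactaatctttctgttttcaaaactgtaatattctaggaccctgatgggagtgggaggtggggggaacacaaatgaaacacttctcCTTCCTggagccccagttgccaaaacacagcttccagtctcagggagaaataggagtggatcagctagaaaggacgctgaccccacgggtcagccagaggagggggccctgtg
Sox17 74.5 kb upstream, chr1:4571764-4572063, + strand: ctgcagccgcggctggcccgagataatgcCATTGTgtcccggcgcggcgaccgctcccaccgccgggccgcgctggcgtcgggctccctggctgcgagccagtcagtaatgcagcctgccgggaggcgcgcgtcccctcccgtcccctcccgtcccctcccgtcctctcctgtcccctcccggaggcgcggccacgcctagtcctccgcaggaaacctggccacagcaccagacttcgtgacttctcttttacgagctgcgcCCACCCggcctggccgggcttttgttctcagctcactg
Sox18 12 kb downstream, chr2:181659513-181659812, + strand: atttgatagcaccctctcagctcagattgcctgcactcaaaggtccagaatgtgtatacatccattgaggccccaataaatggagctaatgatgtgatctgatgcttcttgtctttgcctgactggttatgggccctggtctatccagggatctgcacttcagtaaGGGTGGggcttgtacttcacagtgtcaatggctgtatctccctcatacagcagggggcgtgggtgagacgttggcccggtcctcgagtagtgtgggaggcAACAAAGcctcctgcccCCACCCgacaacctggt
Sox18 4.04 kb upstream, chr2:181675537-181675836, + strand: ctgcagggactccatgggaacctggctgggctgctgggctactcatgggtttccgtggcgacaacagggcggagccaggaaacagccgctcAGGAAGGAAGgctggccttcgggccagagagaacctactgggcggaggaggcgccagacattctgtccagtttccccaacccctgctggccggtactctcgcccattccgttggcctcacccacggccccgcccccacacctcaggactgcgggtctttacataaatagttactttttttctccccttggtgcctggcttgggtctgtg
Foxc1 168 kb downstream, chr13:31974865-31975164, + strand: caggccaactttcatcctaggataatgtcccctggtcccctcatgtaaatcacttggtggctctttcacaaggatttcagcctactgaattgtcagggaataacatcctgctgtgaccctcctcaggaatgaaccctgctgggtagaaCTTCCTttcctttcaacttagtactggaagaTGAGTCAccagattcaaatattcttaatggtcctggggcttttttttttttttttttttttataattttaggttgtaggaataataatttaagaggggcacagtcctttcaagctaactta
Foxo1 115 kb downstream, chr3:52383417-52383716, + strand: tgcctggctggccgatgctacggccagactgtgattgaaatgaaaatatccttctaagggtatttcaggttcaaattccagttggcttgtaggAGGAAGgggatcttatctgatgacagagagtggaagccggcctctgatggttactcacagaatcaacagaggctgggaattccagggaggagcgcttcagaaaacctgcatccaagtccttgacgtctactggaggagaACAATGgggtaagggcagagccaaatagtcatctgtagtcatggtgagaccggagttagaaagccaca
Foxp1 intron, chr6:99011965-99012264, + strand: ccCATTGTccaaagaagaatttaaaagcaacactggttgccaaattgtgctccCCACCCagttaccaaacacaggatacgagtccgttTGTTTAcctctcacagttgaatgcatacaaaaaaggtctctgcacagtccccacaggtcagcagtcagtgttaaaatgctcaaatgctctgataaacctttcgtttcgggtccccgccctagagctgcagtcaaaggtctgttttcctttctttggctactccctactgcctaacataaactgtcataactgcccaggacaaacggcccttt
The Foxp1 window held SOX, KLF and forkhead letters, and the Sox17 upstream window held SOX and KLF letters. Both Sox18 windows differed in their matches, with SOX and KLF letters 12 kb downstream and 2 overlapping ETS matches 4.04 kb upstream. The SOX string ACAATG was found in 3 of the 7 distal regions of these genes that had a peak in all 9 libraries, compared with 18.6% of the 1461 distal regions of the genome with a peak in all 9. These 7 regions differ from the 7 windows above. They include Sox17 3.86 kb downstream, which is not printed, and leave out Sox18 4.04 kb upstream, which had a peak in 8 libraries. CCACCC was found in 3 of the 7, compared with 40.0%. AGGAAG was found in 3 of the 7, compared with 50.2%, and TAAACA in 1 of the 7, compared with 18.1%. AACAAAG was found in 1 of the 7 (9.24% of the 1461), TGANTCA in 1 (15.9%) and CCGGAA in 0 (16.8%). Neither SOX string was found in the promoter regions of the 9 genes, compared with 6.15% (ACAATG) and 3.34% (AACAAAG) of all promoter regions. Over all 174 distal regions of the 9 genes, ACAATG was found in 23.6% and TAAACA in 24.1%, compared with 17.6% and 19.3% of all 81654 distal regions. These matches describe the letters of the windows and do not show binding.

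List length set much of what could be counted. The lists held 6157 and 9598 peaks in young WT Cre, 23848 to 27992 in young EC-K4KO, 32555 and 43893 in old WT Cre, and 39079 and 45026 in old EC-K4KO. Read numbers are not in the files used here, so the depth behind these lengths is unknown. Library names carry one prefix in all young and another in all old libraries, so age and prefix cannot be told apart, and genotype was compared within age. Of 16 EC marker genes, 8 to 12 had a promoter peak in each library, and no library had one at any of 10 microglial markers. Of 14 pericyte and mural markers, none had a promoter peak in the 5 young libraries or in old WT Cre replicate 1, and 3 to 6 had one in the other old libraries. Of 8 astrocyte markers, 0 to 2 had one, of 8 oligodendrocyte markers 0 to 2, and of 11 neuronal markers 0 to 3. The Klf4 promoter, which need not lie in the deleted part of the gene and so does not check the deletion, had a peak in all 9 libraries. In bulk nuclei, fewer cells with an open region and less opening per cell cannot be told apart.

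The peaks assigned to the 9 genes numbered 17 and 29 in young WT Cre, 46, 68 and 71 in young EC-K4KO, 117 and 92 in old WT Cre, and 135 and 127 in old EC-K4KO. The 4 groups did not overlap in these counts, which grow with the lists. As a share of the list they did overlap, at 0.276% and 0.302% in young WT Cre, 0.193% to 0.269% in young EC-K4KO, 0.267% and 0.283% in old WT Cre, and 0.300% and 0.325% in old EC-K4KO, and young EC-K4KO rather than young WT Cre held the lowest share. Foxp1, the longest gene of the set, had the most peaks in the old libraries, from 2 and 4 in young WT Cre to 36 and 35 in old EC-K4KO. Foxo1 had 4 and 5 peaks in young WT Cre and 29 and 25 in old EC-K4KO, and Foxc1 had 2 and 4 compared with 22 and 19. Sox18, the shortest gene, had 1 and 2 peaks in young WT Cre and 4 or 5 in every other library. Foxf2 had 0 and 1 in young WT Cre and 1 in young EC-K4KO replicate 1, and 3 to 7 elsewhere.

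**Figure D1:**
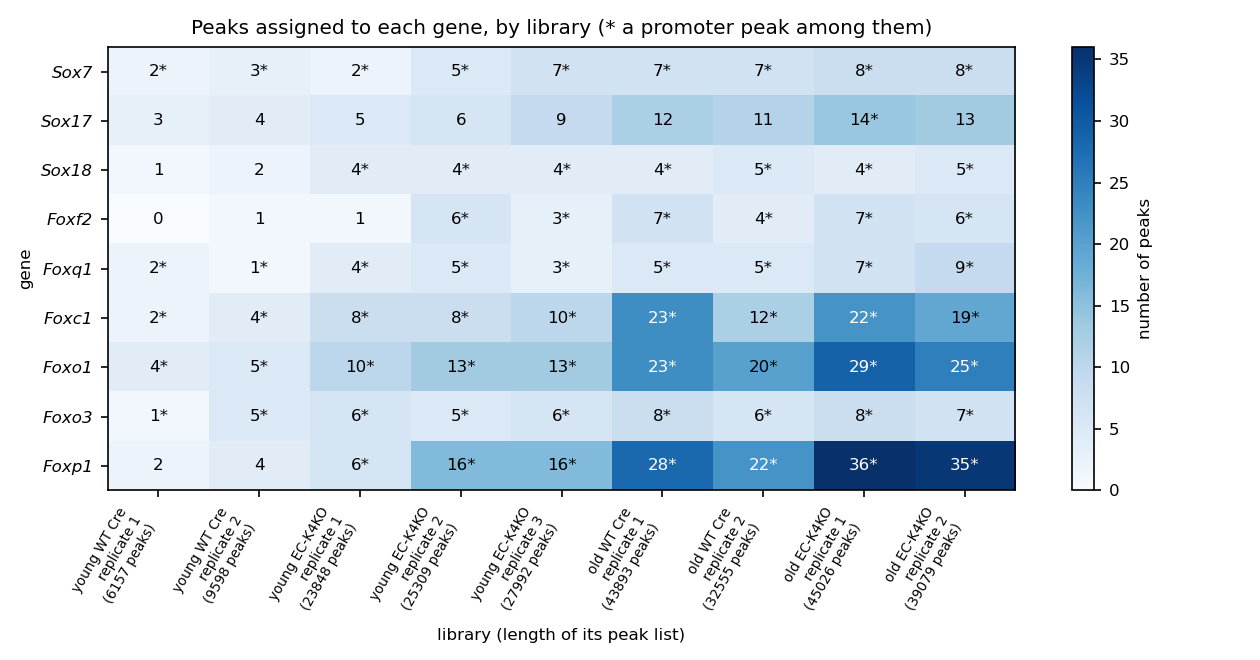
Number of peaks assigned to each of the 9 genes (rows) in each library (columns, with the length of the list in peaks), where darker cells hold more peaks and an asterisk marks a promoter peak. Counts grow with list length, and Foxp1 reaches 36 in old EC-K4KO replicate 1.

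Most regions of these genes were distal. Of the 183 regions, 9 held a promoter-TSS peak, 1 per gene, and 174 did not, with a median distance of 62.9 kb from the TSS used by the authors, compared with 43.1 kb over all distal regions. Distances above 100 kb were found for 35.6% of the distal regions of the 9 genes and for 29.5% of all. Of these 62 regions, 26 were at Foxp1, 15 at Foxo1 and 12 at Foxc1, and none at Sox7, Sox18 or Foxf2. The Foxp1 distances run from a start 407 kb away from its own promoter region, so the excess is not a trait of all 9 genes. Foxp1 had 46 distal regions, Foxo1 34 and Foxc1 27, whereas Sox18 had 4. A peak in a single library was less frequent in these genes (61 of 183 regions, 33.3%) than over all regions (57.3%), and 12 regions (6.56%) had a peak in all 9 libraries, compared with 5.27% of all. These shares were not tested.

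**Figure D2:**
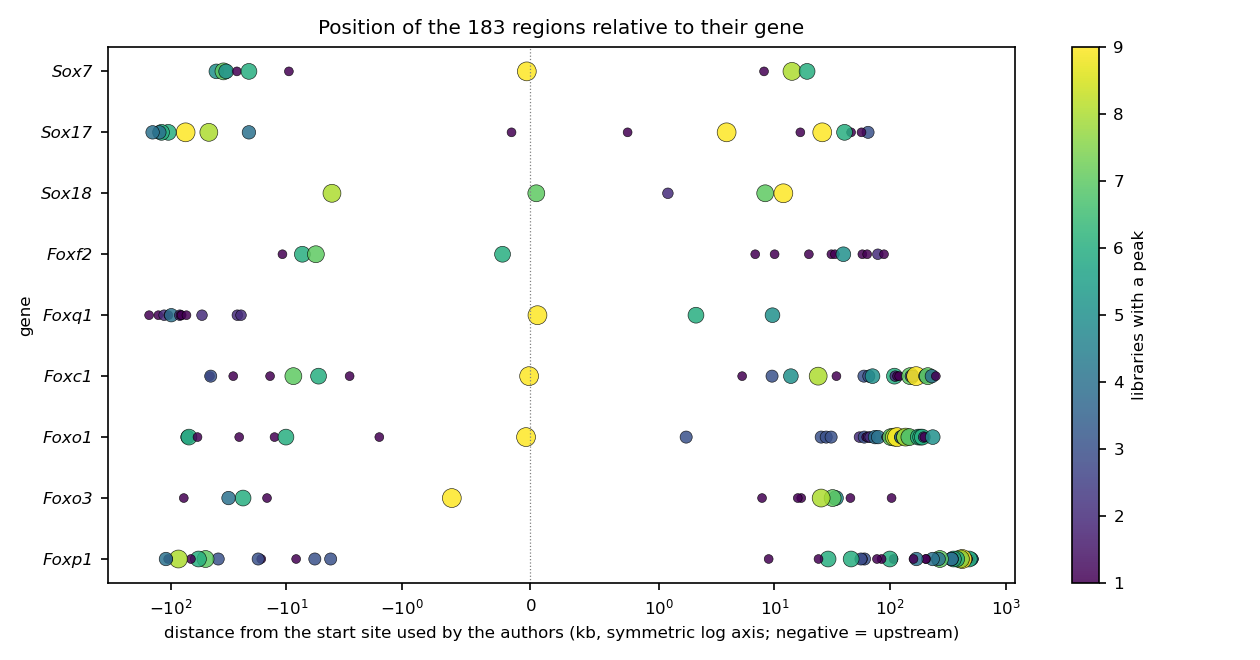
Distance of each of the 183 regions from the TSS used by the authors (x axis, kb, symmetric log scale, negative upstream) by gene, with size and colour showing in how many of the 9 libraries the region had a peak. Sox7, Foxq1, Foxc1, Foxo1 and Foxo3 have a region present in all 9 libraries at or near the start, whereas those of Sox17, Sox18 and Foxp1 lie away from it.

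Promoter peaks ranked higher and were wider than distal peaks in all groups. The rank of a peak was taken within its own list by the authors' -log10 p, so that a low percent is strong. The median promoter peak of the 9 genes stood at 28.9% and 20.1% of the list in young WT Cre, at 16.3% to 21.5% in young EC-K4KO, at 17.7% and 15.7% in old WT Cre, and at 13.0% and 15.2% in old EC-K4KO. Over all promoter peaks the range was 15.4% to 37.7%. Distal peaks of the 9 genes had a median rank of 44.1% to 55.6% and stood above distal peaks in general (57.5% to 66.8%) in all 9 libraries. The median width of promoter peaks was 369 and 376 bp in young WT Cre and 538 to 828 bp in the other 7 libraries, with no overlap. All promoter peaks behaved alike, with 366 and 390 bp in young WT Cre and 499 to 640 bp elsewhere. Distal peaks of the 9 genes had a median width of 296 and 372 bp in young WT Cre and 392 to 465 bp elsewhere. The promoter share of the peaks of these genes was 29.4% and 17.2% in young WT Cre and 6.30% to 8.70% in the 4 old libraries. The same share over all peaks was 55.4% and 47.0% in young WT Cre and 18.8% to 25.2% in the old libraries.

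Differences between groups were tested on the 4872 regions with a peak in all 9 libraries, of which 12 belong to the 9 genes. A region therefore had to be called in the young WT Cre lists, the shortest at 6157 and 9598 peaks. This rule can favour regions that stand high in young WT Cre. The Sox18 and Foxf2 promoters, without a young WT Cre peak, were left out. Over regions in at least 6 libraries, 5 of the 7 rank calls given below held. Each region was ranked among the 4872 by -log10 p in each library, the rank was converted to a normal score in which higher is stronger, and the scores were fitted with limma with Benjamini-Hochberg adjustment over all 4872. For genotype, averaged over both ages, 1 of the 12 passed, an intronic region of Foxp1 that was lower in EC-K4KO, compared with 37 of all regions (0.759%). For age, averaged over both genotypes, 1 of the 12 passed, the Sox7 promoter, which was lower in old mice, compared with 1017 regions (20.9%). For the genotype by age interaction none of the 12 passed and none of all regions did (0%), although 525 had an unadjusted p under 0.05. Against young WT Cre, 1 of the 12 passed in young EC-K4KO (Foxp1; 4.15% of all), 1 in old WT Cre (Sox7; 6.08%) and 1 in old EC-K4KO (Sox17, 25.9 kb downstream; 8.72%). Between old EC-K4KO and old WT Cre none of the 12 passed and none of all (0%), with 189 at an unadjusted p under 0.05. Between young EC-K4KO and old WT Cre 2 of the 12 passed, Sox7 and Foxp1, compared with 7.88% of all. Of these, Sox7 (1.23, SE 0.26, adjusted p = 0.0205) was lost without old WT Cre replicate 1 (adjusted p = 0.234), young EC-K4KO replicate 2 (0.0573) or young EC-K4KO replicate 3 (0.0615). Foxp1 (-1.72, SE 0.24, adjusted p = 0.00442) was lost without old WT Cre replicate 1 (adjusted p = 0.0729). The comparisons with young WT Cre share its 2 libraries. The median difference over the 12 regions was -0.13 for genotype and -0.12 for age, and over all regions 0.01 and 0.03.

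**Figure D3:**
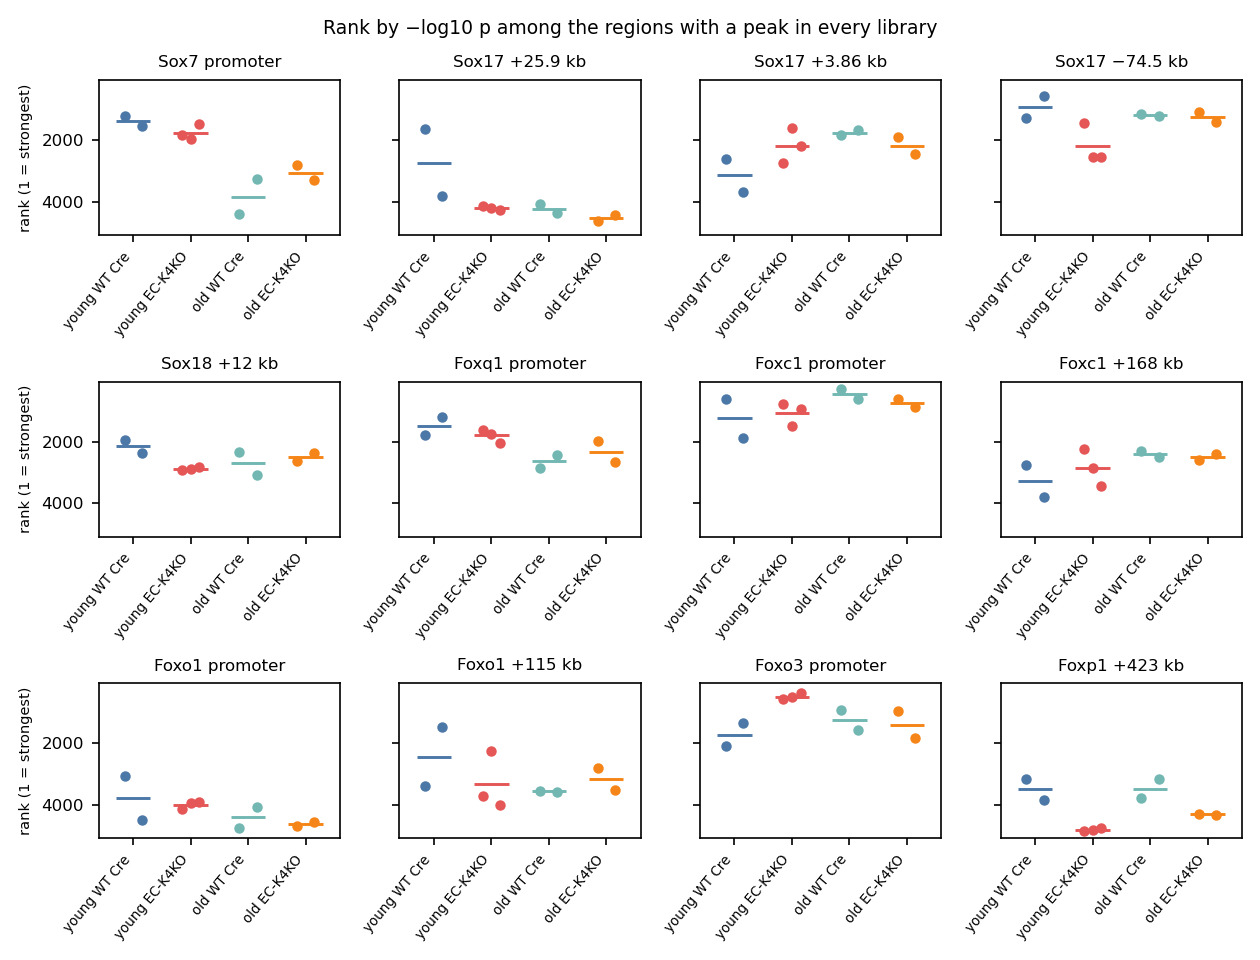
Rank among the 4872 regions with a peak in every library (y axis, 1 is strongest, inverted) of the 12 regions of the 9 genes, by group, with 1 point per library and a bar at the group mean. The 3 young EC-K4KO points of the Foxp1 region (+423 kb) sit at 4767 to 4849, below those of the other groups, and the 4 old points of the Sox7 promoter at 2811 to 4389, below the 5 young ones.

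Sox7 carried the one difference with age in rank that passed among the 12 regions. Its promoter region (chr14:63943249-63944044, which contains the Sox7 TSS and part of exon 1) ranked 1209 and 1520 in young WT Cre, 1817, 1951 and 1476 in young EC-K4KO, 4389 and 3265 in old WT Cre, and 2811 and 3284 in old EC-K4KO. All 5 young libraries ranked above all 4 old ones. In limma the age difference was -1.07 (SE 0.19, adjusted p = 0.00554), the genotype difference 0.16 (SE 0.19, adjusted p = 0.732), and old WT Cre lay -1.45 (SE 0.29, adjusted p = 0.0198) from young WT Cre. The last of these was lost without old WT Cre replicate 1 (adjusted p = 0.152). The age difference passed with each of the 9 libraries left out (-1.28 to -0.86), and by fold (adjusted p = 0.0127). It was lost as a percent rank in the whole list, which depends on list length (-0.02, adjusted p = 0.899). The two-sided exact permutation test gave p = 0.0167, the smallest that 60 arrangements can give, with an adjusted p of 0.106, which was the smallest of any region, so no region passed that test. Mural marker promoters had a peak in 3 of the 4 old libraries and in no young one, and their part in the age difference was not tested. Of 8 EC marker promoters that could be tested, 1 ranked higher and 3 lower in old mice, where 20.9% of all regions passed. The fall in rank with age was therefore not particular to Sox7. The peak did not become narrower with age: it covered 255 and 428 bp in young WT Cre, 514 to 674 bp in young EC-K4KO, and 524 to 735 bp in the old libraries. A further Sox7 region 14.2 kb downstream (chr14:63957636-63958158, intergenic) had a peak in 8 libraries, all but young EC-K4KO replicate 2.

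Sox17 was represented by distal regions. A promoter-TSS peak was called in 1 library only, old EC-K4KO replicate 1, where it was 187 bp wide with a fold of 2.44, and 3 other regions had a peak in all 9 libraries. The region 25.9 kb downstream (chr1:4470751-4471814, intergenic) ranked 1645 and 3824 in young WT Cre, 4125, 4191 and 4259 in young EC-K4KO, 4076 and 4358 in old WT Cre, and 4608 and 4423 in old EC-K4KO. Both young WT Cre libraries stood above the other 7. Old EC-K4KO differed from young WT Cre by -1.28 (SE 0.34, limma adjusted p = 0.0447), which passed with 1 of 9 libraries left out (range -1.79 to -0.63), and the genotype (-0.62, adjusted p = 0.222) and age differences (-0.66, adjusted p = 0.0661) did not pass. The call held without young WT Cre replicate 2 (adjusted p = 0.00127) and was lost without each other library (adjusted p up to 0.255). The region 74.5 kb upstream (chr1:4571431-4572301, intergenic) was among the strongest, at 1276 and 568 in young WT Cre, 1446, 2550 and 2530 in young EC-K4KO, 1153 and 1192 in old WT Cre, and 1073 and 1411 in old EC-K4KO. Young EC-K4KO ranked below the other groups here, but neither genotype (-0.41, SE 0.19, adjusted p = 0.325) nor the interaction (0.73, SE 0.38, adjusted p = 0.537) passed. The region 3.86 kb downstream (chr1:4491833-4493872) covers coding and untranslated exons of Sox17 and ranked 1607 to 3674 with overlapping groups (genotype adjusted p = 0.749, age adjusted p = 0.182).

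Sox18 had a promoter peak in every library outside young WT Cre, a pattern shared with many regions of the longer lists. The promoter region (chr2:181671353-181671792, containing the TSS) had no peak in either young WT Cre library and one in all 7 others, at 38.5%, 49.3% and 27.7% of the list in young EC-K4KO, 10.5% and 22.8% in old WT Cre, and 13.0% and 19.4% in old EC-K4KO. Its fold was 2.76 to 5.71. Among the 6157 strongest peaks of each library it was present in 2 libraries and was not called gained in any group, and with the lists as deposited the gained share of all regions was 23.9% for young EC-K4KO, 40.8% for old WT Cre and 62.2% for old EC-K4KO. The region 4.04 kb upstream (chr2:181675503-181675862, intergenic), whose window holds the overlapping ETS matches, was missing in young WT Cre replicate 1 and stood at 65.5% in replicate 2, at 19.4% to 26.3% in young EC-K4KO and at 5.24% to 10.5% in the old libraries. On this scale, which depends on list length, young WT Cre replicate 2 stood lowest and all old libraries stood above all young ones. The region 12 kb downstream (chr2:181659292-181660064, touching an exon of the neighbouring gene Gm29797) had a peak in all 9 libraries and ranked 1936 to 3066 among the shared regions, with differences of -0.13 for genotype (SE 0.15, limma adjusted p = 0.712) and -0.04 for age (SE 0.15, adjusted p = 0.857).

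The Foxq1, Foxf2 and Foxc1 genes lie on chromosome 13 with gaps of 64.8 and 175 kb, and their promoters differed in strength. The Foxc1 promoter (chr13:31806254-31807057, containing the TSS) was the strongest, with ranks of 619 and 1858 in young WT Cre, 770, 1477 and 919 in young EC-K4KO, 264 and 619 in old WT Cre, and 613 and 871 in old EC-K4KO. The groups overlapped (genotype -0.13, SE 0.21, limma adjusted p = 0.804; age 0.44, SE 0.21, adjusted p = 0.158). The Foxq1 region that the authors call promoter (chr13:31556962-31558614) lies over untranslated sequence of Foxq1, 1.65 kb downstream of the GENCODE start, and ranked 1174 and 1772 in young WT Cre, 1600 to 2028 in young EC-K4KO, and 1969 to 2837 in the old libraries. The age difference was -0.45 (SE 0.16, adjusted p = 0.0718). The Foxf2 promoter (chr13:31625142-31626087, containing the TSS) had no peak in young WT Cre or in young EC-K4KO replicate 1, and where present it was weak, at 38.3% to 56.7% of the list with a fold of 3.29 to 4.47. Foxf2 is also a pericyte gene, and mural marker promoters had a peak in 3 of the 6 libraries with this peak and in none of the other 3 libraries. Their part in it was not tested. A region 168 kb downstream of Foxc1 (chr13:31974552-31975436) lies in an intron of Gmds, so its assignment to Foxc1 is by distance alone. It had a peak in all 9 libraries, at ranks of 2740 and 3800 in young WT Cre, 2238 to 3423 in young EC-K4KO and 2311 to 2587 in the old libraries, and passed neither test (genotype adjusted p = 0.831, age adjusted p = 0.226).

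Foxo1 and Foxo3 promoters had a peak in every library. The Foxo3 promoter (chr10:42276386-42278294, containing the starts of all 4 annotated transcripts) ranked 2098 and 1351 in young WT Cre, 557, 505 and 362 in young EC-K4KO, 898 and 1561 in old WT Cre, and 957 and 1834 in old EC-K4KO. In young mice all EC-K4KO libraries ranked above both WT Cre libraries, and in old mice the genotypes overlapped. The genotype difference (0.41, SE 0.18, limma adjusted p = 0.312) and the interaction (-1.02, SE 0.37, adjusted p = 0.381) did not pass. The Foxo1 promoter (chr3:52267791-52268821, containing the TSS) was among the weaker of the shared regions, at 3050 and 4487 in young WT Cre, 3898 to 4141 in young EC-K4KO and 4057 to 4740 in the old libraries (age -0.65, SE 0.26, adjusted p = 0.0927). The Foxo1 region 115 kb downstream (chr3:52383325-52383808, intergenic) ranked 1480 to 4002 with overlapping groups (genotype adjusted p = 0.825, age adjusted p = 0.521). Further regions 109 and 136 kb downstream of Foxo1 had a peak in 8 libraries.

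Foxp1 carried the difference with genotype. The region (chr6:99011244-99012460) lies in an intron of Foxp1, 423 kb downstream of the TSS used by the authors and 16.4 kb downstream of the nearest annotated start of a Foxp1 transcript. It ranked 3152 and 3831 in young WT Cre, 4849, 4817 and 4767 in young EC-K4KO, 3790 and 3152 in old WT Cre, and 4302 and 4317 in old EC-K4KO. Within each age, all EC-K4KO libraries ranked below all WT Cre libraries. The genotype difference was -1.17 (SE 0.18, limma adjusted p = 0.0263; two-sided exact permutation test p = 0.0167, the smallest that 60 arrangements can give, adjusted p = 0.247, the smallest of any region), and young EC-K4KO lay -1.71 (SE 0.24, adjusted p = 0.0135) from young WT Cre. The genotype call was lost by fold (-0.91, adjusted p = 0.127), as a percent rank in the whole list (-0.05, adjusted p = 0.738), and in 5 of 9 fits that left out a library: old EC-K4KO replicate 1 (adjusted p = 0.186) or replicate 2 (0.167), old WT Cre replicate 1 (0.117) or replicate 2 (0.0962), or young EC-K4KO replicate 2 (0.0860). The difference stayed between -1.27 and -0.96 in all 9. With a replicate block no region of the genome passed for genotype or between the young groups, so both Foxp1 calls were lost. In old mice alone the difference was -0.63 (SE 0.27) and did not pass adjustment. The difference in young mice was lost without young EC-K4KO replicate 2 (adjusted p = 0.0587), and as a percent rank in the whole list it turned to 0.15. The deposited fold of the region was 4.59 and 4.54 in young WT Cre, 2.97, 5.14 and 5.83 in young EC-K4KO, 7.31 and 9.24 in old WT Cre, and 8.17 and 7.63 in old EC-K4KO. The low rank in young EC-K4KO therefore stands relative to other regions of the same library, and the fold itself overlapped between genotypes at both ages. In old mice the region covered more bases in EC-K4KO (mean 1120 bp) than in WT Cre (mean 620 bp), opposite to the rank. That width difference did not pass adjustment. A region that contains that internal start (chr6:99027809-99029063), the one region of the gene with promoter peaks, had a peak in 8 libraries, and the region at the most upstream annotated start (chr6:99520915-99523540), which the authors' annotation counts as distal, had a peak in the same 8. Young WT Cre replicate 1 lacked both.

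Widths rose across the genome, and most widths at the 9 genes rose with them. The median shared region covered 377 and 444 bp in young WT Cre, 593 to 697 bp in young EC-K4KO, and 699 to 752 bp in the old libraries. On log2 bases covered, limma called 3 of the 12 regions wider in EC-K4KO, namely the Foxq1 promoter (0.75, SE 0.17, adjusted p = 0.0204), the Foxc1 promoter (0.69, SE 0.14, adjusted p = 0.0162) and Sox18 12 kb downstream (0.42, SE 0.12, adjusted p = 0.0406). The Foxq1 call was lost without old WT Cre replicate 1 or 2 (adjusted p up to 0.0712), and the Foxc1 call without old EC-K4KO replicate 1 or 2 or old WT Cre replicate 1 (up to 0.0683). The Sox18 call was lost without any 1 of the 4 old libraries, young EC-K4KO replicate 2 or young EC-K4KO replicate 3 (up to 0.125). The same test called 30.9% of all regions, with a median shift of 0.35. It called 7 of the 12 wider in old mice, compared with 67.3% of all regions and a median shift of 0.47. After the library median was subtracted, no region of the 9 genes passed for genotype (0.287% of all) and 2 of the 12 passed for age (7.61% of all). The Foxp1 intronic region covered 282 and 395 bp in young WT Cre, 207, 393 and 464 bp in young EC-K4KO, 675 and 564 bp in old WT Cre, and 1097 and 1146 bp in old EC-K4KO. All old libraries were wider than all young ones, by 2.48-fold (log2 difference 1.31, SE 0.25, adjusted p = 0.00540), and by 1.78-fold relative to the library median (0.83, SE 0.19, adjusted p = 0.0452). The Foxc1 promoter covered 306 and 322 bp in young WT Cre, 538 to 797 bp in young EC-K4KO, 355 and 446 bp in old WT Cre, and 445 and 517 bp in old EC-K4KO. Relative to the library median it was narrower in old mice (-0.57, SE 0.12, adjusted p = 0.0408).

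**Figure D4:**
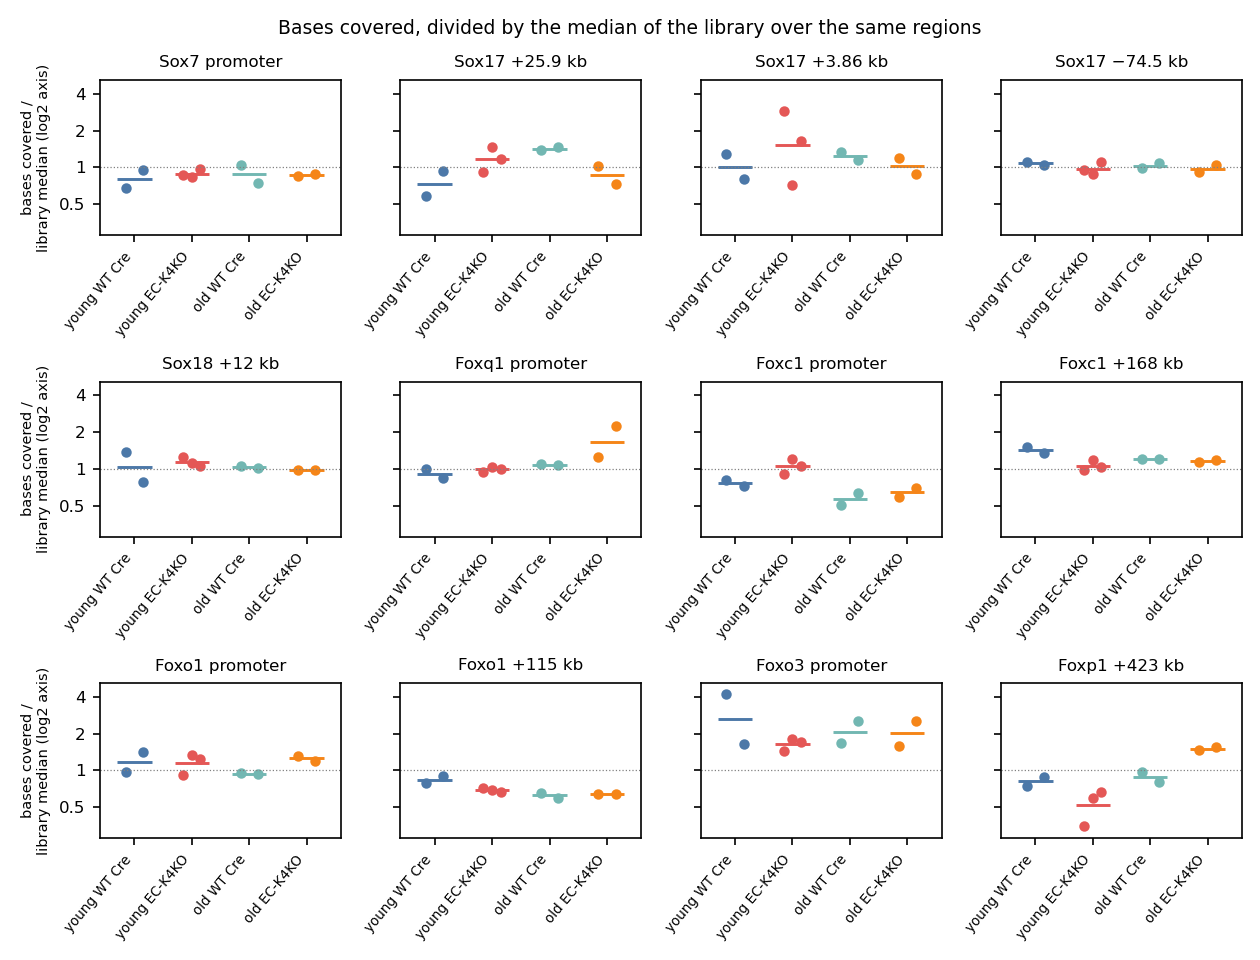
Bases covered in the 12 regions, divided by the median of the library over the 4872 shared regions (y axis, log2 scale, dotted line at 1), by group, with 1 point per library and a bar at the geometric mean. The Foxp1 region (+423 kb) reaches 1.46 and 1.55 in old EC-K4KO and 0.348 to 0.667 in young EC-K4KO.

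Regions were also compared by presence, with a region called gained when at least 2 libraries of a group and neither young WT Cre library had a peak. Among the 122 regions of the 9 genes with a peak in at least 2 libraries, 32 (26.2%) were gained in young EC-K4KO, compared with 23.9% of 39508 such regions overall. In old WT Cre 54 (44.3%) were gained, compared with 40.8%, and in old EC-K4KO 81 (66.4%), compared with 62.2%. No region of these genes was lost in young EC-K4KO (0.00253% overall), old WT Cre (0.00253%) or old EC-K4KO (0.0101%). The shares stood near those of all regions. Without young EC-K4KO replicate 2 or replicate 3 the 32 fell to 9 or 10, since both remaining libraries then had to hold the peak, and without old WT Cre replicate 2 the 54 rose to 86. Presence in 2 against 2 or 3 against 2 libraries cannot reach p = 0.05 in an exact test for a single region, and none was tested. Of the 32 gained in young EC-K4KO, 31 were gained in old EC-K4KO and 29 in old WT Cre as well, all against the same young WT Cre libraries. A peak in all 3 young EC-K4KO libraries was found for 7 of the 32: the Sox18 promoter, Sox18 8.33 kb downstream, Foxf2 5.56 kb upstream, Foxc1 149 and 212 kb downstream, Foxo1 102 kb downstream and Foxo3 31.9 kb downstream. By gene, the 81 gained in old EC-K4KO were 25 at Foxp1, 15 at Foxo1, 14 at Foxc1, 7 at Sox17, 5 at Foxf2, 5 at Foxq1, 4 at Foxo3, 4 at Sox7 and 2 at Sox18. The 54 gained in old WT Cre were 15 at Foxp1, 11 at Foxo1, 8 at Foxc1, 5 at Sox17, 4 at Foxf2, 4 at Foxo3, 3 at Sox7, 2 at Foxq1 and 2 at Sox18. Against old WT Cre, 11 (9.02%) were gained in old EC-K4KO, compared with 11.1% overall. Young EC-K4KO lacked 17 regions (13.9%) that old WT Cre had, compared with 11.0%. Of these 17, 7 were at Foxp1, 4 at Foxo1, 2 at Foxc1, 2 at Sox17, 1 at Foxo3 and 1 at Foxq1.

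Most gains were not seen when the lists were cut to equal length. With the 6157 strongest peaks of each library, the 9 genes had 19 regions in at least 2 libraries. Young EC-K4KO gained 1 of the 19 (5.26%), compared with 8.88% of all 7935 regions. Old WT Cre gained 2 (10.5%), compared with 9.28% of all, and old EC-K4KO gained 1 (5.26%), compared with 10.5% of all. Sox18 4.04 kb upstream was the one region gained in each of the 3 groups, and in young WT Cre replicate 2 it stood at rank 6285, just outside the limit. Foxc1 109 kb downstream was gained in old WT Cre. Young EC-K4KO lost 2 of the 19 (10.5%), compared with 2.26% of all 7935 regions. Old WT Cre lost 1 (5.26%), compared with 5.48% of all, and old EC-K4KO lost 3 (15.8%), compared with 6.63% of all. These shares rest on few regions and were not tested. The Foxp1 intronic region and Sox7 14.2 kb downstream were lost in young and old EC-K4KO, and Sox17 25.9 kb downstream in both old groups.

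The number of distal peaks per gene was set against the distal peaks of the whole list. None of the 9 genes passed for genotype or for age after adjustment (two-sided exact permutation test over 60 arrangements), and none of 10565 genes did (0% and 0%), with 1004 and 1549 at an unadjusted p under 0.05. With so few arrangements a gene could pass only if a large share of all genes tied at the smallest p of 0.0167. Sox18 had 3.65 and 3.93 distal peaks per 10000 in young WT Cre, 1.46 to 1.69 in young EC-K4KO, 0.842 and 1.64 in old WT Cre, and 0.824 and 1.30 in old EC-K4KO. Both young WT Cre libraries were highest, from 1 and 2 peaks (genotype -1.18, exact permutation p = 0.0333, adjusted p = 0.351; age -1.54, exact permutation p = 0.0167, adjusted p = 0.165). Sox17 had 10.9 and 7.86 per 10000 in young WT Cre and 2.82 to 4.52 elsewhere (genotype -2.96, exact permutation p = 0.050, adjusted p = 0.411). Foxp1 had 7.29 and 7.86 in young WT Cre, 2.82 to 8.33 in young EC-K4KO and 7.57 to 11.1 in the old libraries (age 2.37, exact permutation p = 0.0833, adjusted p = 0.307).

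Other genes of the same families mostly had no promoter peak called, which in lists of unlike length does not show that the promoter is closed. Of 16 other Sox genes 1 to 7 had a promoter peak in a library, and none of the 16 had one in all 9. Of 38 other forkhead genes 3 to 11 had one, and 3 could be tested. Of these, Foxo6, an atypical FoxO gene, ranked higher in old mice (0.72, SE 0.20, limma adjusted p = 0.0286), and Foxn2 and Foxj3 passed for neither genotype nor age in rank. Of 25 endothelial genes linked to SoxF, FoxO and forkhead factors, 14 could be tested. For age 0 were higher and 2 lower in rank, a smaller share than the 20.9% of all regions. In rank none of the 14 passed for genotype. The promoter of Cldn5, a tight junction gene, was lower in rank in old mice (difference -0.85, SE 0.18, limma adjusted p = 0.0122). That of the deacetylase gene Sirt1 was lower in rank by a difference of -0.71 (SE 0.23, adjusted p = 0.0487). In width the Cldn5 promoter went the other way, wider in old mice (log2 difference 0.87, SE 0.08, limma adjusted p = 0.000710). That test called 5 of the 14 wider in old mice, compared with 67.3% of all regions. By genotype, 3 of the 14 were wider in EC-K4KO, compared with 30.9% of all regions. The Sirt1 width did not pass for age (0.11, SE 0.15, adjusted p = 0.489). The median difference in rank over the 14 was -0.02 for both genotype and age, near the medians over all regions.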

How the data were processed

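Omni-ATAC-seq peak lists of 9 libraries in 4 groups were analysed, with groups taken from the labels. By the study's methods, the authors trimmed reads with TrimGalore, aligned them to mm10 (GRCm38) with Bowtie2, removed duplicates and low-quality alignments with Picard and SAMtools, and called broad peaks with MACS2. Each library has a list of its own. The deposited lists give for each broad peak a score, a fold enrichment (a ratio over the local background) and -log10 p and q values, which the authors' caller averages over the peak. Per the file headers, peaks were assigned to genes and classes with annotatePeaks. Read counts are not in the files used here, so depth is unknown, no counting interval can be given, and the authors' read-based test was not repeated.

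Overlapping peaks (at least 1 bp) were merged into regions. Rank by -log10 p and log2 bases covered were fitted with limma 3.58.1 in R 4.3.3 (4 group means, 9 libraries, shared spread) over the 4872 regions present in all 9 libraries, with Benjamini-Hochberg adjustment and a threshold of 0.05. Distal peaks per gene were tested by a two-sided exact permutation test within age or genotype, over genes with at least 5 distal peaks. The scripts were tested on simulated data. Alternatives were ranking by fold, whole-list percent ranks, regions in at least 6 libraries, q limits of 0.05 and 0.01, exact tests, centred widths, lists of equal length, a replicate block and leaving out each library.

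All 9 genes are named, with every region that held a promoter peak, had a peak in all 9 libraries or was lost against young WT Cre. Regions gained in all libraries of a group are named for young EC-K4KO and given as counts by gene for both old groups, as are regions lost against old WT Cre in the lists as deposited. The members and the lists were chosen with earlier results of these data known. Annotation is GENCODE M21 and sequence is GRCm38, on which all peak coordinates fell within chromosome ends.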

Additional observations from a re-analysis of the deposited data

Results flagged for a closer look

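One result was flagged, because the genotype difference in width went in opposite directions in young and old mice. The region 25.9 kb downstream of Sox17 covered 221 and 412 bp in young WT Cre and 543, 959 and 821 bp in young EC-K4KO, but 970 and 1030 bp in old WT Cre and 767 and 538 bp in old EC-K4KO. All young EC-K4KO libraries were wider than both young WT Cre libraries, and both old EC-K4KO libraries were narrower than both old WT Cre libraries. The interaction on the log2 scale was -1.96 (SE 0.49), and it did not pass in limma (adjusted p = 0.0509). After the library median was subtracted it was -1.38 (adjusted p = 0.230).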

How the results depend on the processing

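Counts over all regions moved with most choices. Regions with a genotype difference in rank (37) became 0 with a replicate block, 2 by fold, 2 over regions in at least 6 libraries, 3125 as whole-list percent ranks and 0 by exact permutation test (532 at an unadjusted p under 0.05). Regions with an age difference in rank (1017) became 3840 over regions in at least 6 libraries, 3988 as whole-list percent ranks and 0 by exact permutation test (1213 at an unadjusted p under 0.05). The interaction (0) became 2442 as whole-list percent ranks. Young EC-K4KO against young WT Cre (202) gave 0 with the replicate block, 82 by fold, 663 in at least 6 libraries and 4139 as whole-list ranks. Old WT Cre against young WT Cre (296) gave 187, 662, 2140 and 4351 under the same choices. Old EC-K4KO against young WT Cre (425) gave 1135 by fold, 2633 in at least 6 libraries and 4414 as whole-list ranks. Young EC-K4KO against old WT Cre (384) gave 160 with the replicate block, 101 by fold, 887 in at least 6 libraries and 0 as whole-list ranks, and old EC-K4KO against old WT Cre (0) gave 2 in at least 6 libraries. Width differences by genotype (1506) became 560 with the replicate block, 14 after centring and 0 by exact permutation test (1926 at an unadjusted p under 0.05), and those by age (3280) became 371 and 0 (2112 at an unadjusted p under 0.05). The whole-list ranks depend on list length by construction, and for the other choices the cause was not tested.

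Leaving out 1 library gave 0 to 405 regions for genotype in rank (405 without young WT Cre replicate 2), 269 to 1888 for age (1888 without young WT Cre replicate 1), 0 to 89 for the interaction, 4 to 812 for young EC-K4KO, 0 to 919 for old WT Cre and 0 to 1066 for old EC-K4KO against young WT Cre, 0 for old EC-K4KO against old WT Cre, and 0 to 1148 for young EC-K4KO against old WT Cre. Width gave 282 to 2748 for genotype and 1856 to 4458 for age. Where this left a group with 1 library, that library was assumed to vary like the others. Gains of the 9 genes ranged from 9 to 44 in young EC-K4KO, 54 to 86 in old WT Cre and 81 to 103 in old EC-K4KO, and losses from 0 to 3 in each. With lists of equal length gains were 1, 2 and 1 and losses 2, 1 and 3 in these groups, and 7 regions were gained when every young EC-K4KO library had to hold the peak. Distal peaks per gene gave 0 calls under every alternative run, which the small number of arrangements largely fixes and which says nothing about stability.

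Of the 17 calls at the 9 genes, 17 held at q under 0.05 and 10 with the replicate block, with 7 lost. Same-numbered libraries of different groups did not deviate together (correlations of -0.01 to 0.12 in rank over 12 pairs, 1 over 0.1, and -0.02 to 0.04 in width), so the numbers were not read as pairs. By fold 3 of 7 rank calls held, and by exact permutation test 0 of 12 calls did, in a test that no region of the genome passed. As whole-list percent ranks the direction turned for Foxp1 in young EC-K4KO (0.15), Sox7 in old WT Cre (0.11) and Sox17 25.9 kb downstream in old EC-K4KO (0.49), each against young WT Cre. After centring, the age difference in width turned for Sox17 74.5 kb upstream (-0.03), Foxc1 168 kb downstream (-0.06) and Sox18 12 kb downstream (-0.11). With 2 or 3 libraries a group and no read counts, small differences in accessibility were not detectable.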
